A study of Mus musculus with 4 samples.

Results

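The cells described here are cells of the embryonic mouse cerebellum with few cell cycle transcripts that were chosen for 3 oligodendrocyte lineage transcripts, Olig1, Pdgfra and Sox10. Barcodes were kept from 500 genes upwards if mitochondrial UMIs were no more than 10%. A kept barcode was a member when Olig1, Pdgfra and Sox10 together had at least 2 UMIs. Members also had no UMI of the microglial genes C1qa, C1qb and Csf1r or of the collagen genes Col1a1 and Col1a2, and at most 4 UMIs over 6 cell cycle genes (Mki67, Top2a, Cenpf, Ube2c, Ccnb1 and Nusap1). The rule found 1093 cells among 24856 kept cells (4.40%). The working name of the class was oligodendrocyte lineage, but the data went against it as a name for the whole class. Of the 1093 cells, 1018 (93.1%) carried Olig1 alone among the 3 rule genes, 42 had a UMI of Sox10 and 44 had a UMI of Pdgfra. The class is therefore called Olig1-led cells.

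The libraries hold tdTomato-positive cells sorted from E15.5 cerebella, with 2 libraries per genotype, and each library was made from pooled animals. Control animals were Ptf1aCre/+; R26LSL-tdT/+. En1/2 CKO animals were Ptf1aCre/+; En1lox/lox, En2lox/lox; R26LSL-tdT/+, a conditional knockout of the Engrailed genes En1 and En2. Both genotypes carried 1 Ptf1aCre allele, and no group without Cre was analysed here. By design, recombination and the red reporter were limited to cells with a history of Cre from the Ptf1a locus. The series asks how Engrailed transcription factors act in embryonic Purkinje cells and interneurons.

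Olig1 and Olig2 are neighbouring basic helix-loop-helix transcription factor genes used in oligodendrocyte specification, and Olig2 is also made by progenitors of the cerebellar ventricular zone. Sox10 is a transcription factor of the lineage and Sox8 is its relative. Pdgfra is the receptor through which PDGF drives the division of oligodendrocyte precursors. Gpr17, Nkx2-2, Bmp4 and Enpp6 mark committed precursors, and genes such as Mbp, Mog and Mobp belong to myelin. In the mouse cerebellum most oligodendrocytes are thought to arrive from outside, and glial cells of the astrocyte branch arise from local radial glia.

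Depth was uneven. The 4 libraries held 5305154 to 21021428 UMIs, 25.5% to 94.6% of their barcodes were kept, and the median UMI count of a member was 1518 and 2611 in control replicates 1 and 2, and 3872 and 1685 in En1/2 CKO replicates 1 and 2. Control replicate 1 stood apart: the nuclear RNA Malat1 was at 84865 CPM in its members and at 34282 to 37378 CPM in those of the others. CPM is the share of a gene in the UMIs summed over the cells of a class in 1 library, expressed as counts per 1000000. Libraries shared 1 to 22 kept barcodes in pairs, and no member's barcode was shared. Scrublet scores likely doublets, and 100 of the members (9.15%) were marked by its scores. These were 27, 0, 29 and 44 in the order control replicate 1, control replicate 2, CKO replicate 1 and CKO replicate 2. All library values are listed in this order from here on. In all libraries but control replicate 2 its own call marked under 0.5% of cells, so a set number of top scores was taken instead. The counts are therefore not comparable between libraries. Among kept cells 8.33%, 0.51%, 4.18% and 6.43% were marked, against 11.4%, 0%, 9.67% and 9.26% of members. Removing the marked cells is among the alternatives given at the end.

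Free RNA was measured in microglia, which should make none of the rule genes. Of 412 barcodes with at least 5 UMIs of C1qa, C1qb and Csf1r, 8 had 2 or more rule UMIs (1.94%, exact 95% interval 0.842% to 3.79%). These were 1 of 94, 0 of 63, 0 of 63 and 7 of 192 barcodes, and the 2 counts of 0 allow shares of up to 4.76% each. The microglia were deeper (median 3431 to 4396 UMIs) than the kept cells (1119 to 2431), of which 2.70%, 9.52%, 7.43% and 8.15% had 2 or more rule UMIs before the other exclusions. The intervals cover counting error only. In En1/2 CKO replicate 2 the microglial share was 3.65%.

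**Figure D1:**
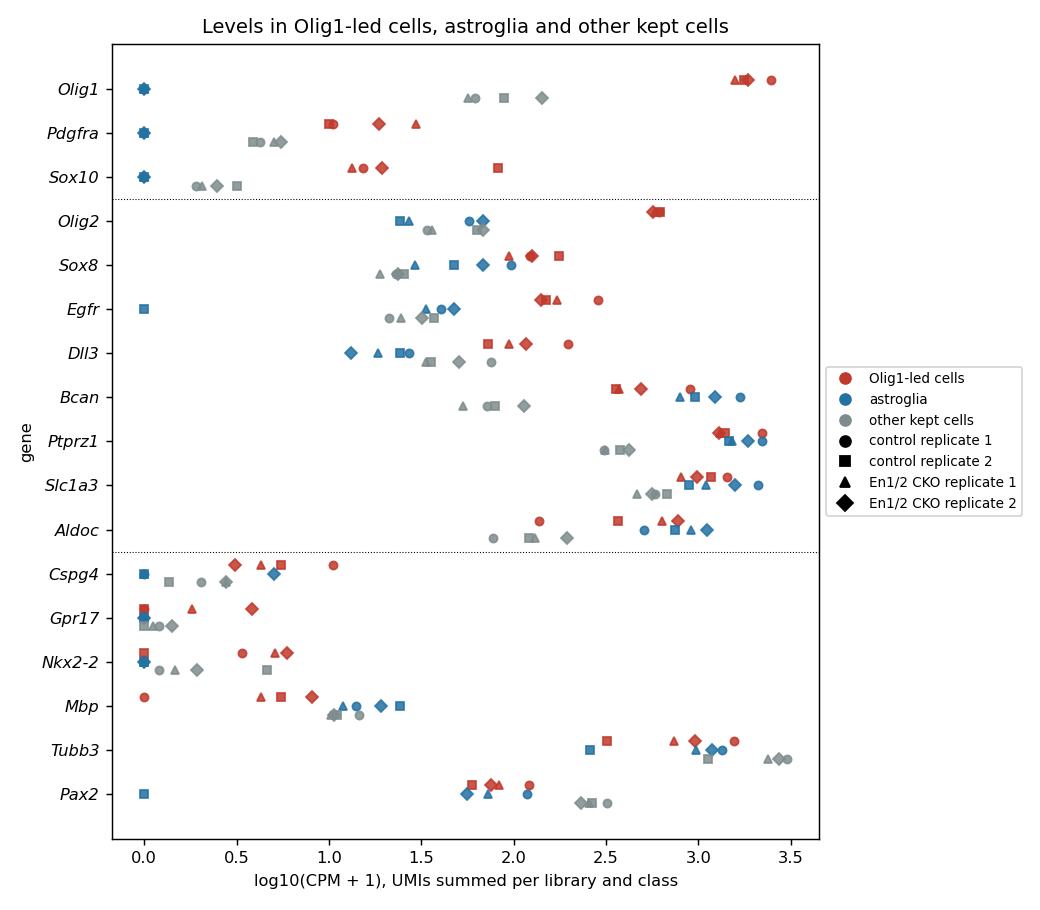
Level of 17 genes in Olig1-led cells (red), astroglia (blue) and all other kept cells (grey), as log10(CPM + 1) with 1 symbol per library. Genes above the first dotted line were used by the rule, and Bcan was used to choose the astroglia. Olig2 lies between 569.8 and 619 CPM in the Olig1-led cells and at 67.6 CPM or less in the other classes, while Cspg4, Gpr17, Nkx2-2 and Mbp (below the second line) stay at 9.56 CPM or less in the Olig1-led cells.

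Among the transcription factors, Olig1, on chromosome 16 (GRCm38, 91269772 to 91271933), was at 2484, 1772, 1569 and 1861 CPM in the members, which the rule fixed. Olig2, on the same chromosome (91225457 to 91228677) and not used by the rule, was at 607, 619, 578 and 569.8 CPM. It was at 32.8, 62.0, 35.3 and 67.6 CPM in all other kept cells. The libraries lay close together in members, and none overlapped with the other cells. Olig2 was found in 54.0%, 66.7%, 64.3% and 56.6% of members. With every cell thinned to 1000 UMIs, which left out 34, 4, 44 and 104 shallower members, the shares were 38.4%, 46.8%, 38.7% and 37.7%, against 0% to 8.78% in astroglia and 0% to 3.53% in microglia.

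Sox8 (chromosome 17, 25565892 to 25570686) was at 122, 175, 93.1 and 124 CPM, against 22.1, 24.5, 17.8 and 22.5 CPM in other kept cells. Sox10 (chromosome 15, 79154908 to 79165240) was at 14.3, 80.8, 12.2 and 18.3 CPM, with control replicate 2 above the other libraries. It rested on 6, 18, 15 and 26 UMIs and was present in 2.11%, 12.3%, 3.0% and 3.79% of members. Nkx2-2 reached at most 4.93 CPM, and Myrf, which switches on myelin genes, had UMIs in the members of control replicate 1 only (2.39 CPM). In the list of 17 oligodendrocyte transcription factors, 8 were higher in the members than in the other kept cells in every library and 3 were lower. Over all 16454 genes with a UMI in a member, 2068 were higher and 4051 lower in every library. These counts compare cells that the rule separated and carry no test.

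Among receptors and surface proteins, Pdgfra (chromosome 5, 75152292 to 75198215) was at 9.56, 8.97, 28.6 and 17.6 CPM, from 4, 2, 35 and 25 UMIs. Cspg4, the NG2 proteoglycan of oligodendrocyte precursors, was at 9.56, 4.49, 3.27 and 2.11 CPM. Egfr, the epidermal growth factor receptor of early glial progenitors, was at 285, 148, 169.8 and 140.2 CPM, against 20.1 to 36.1 CPM in other kept cells and 0 to 46.6 CPM in astroglia. Ptprz1, a receptor phosphatase of glial progenitors, was at 2216, 1391, 1306 and 1289 CPM, against 308 to 420.4 CPM in other kept cells. C1ql1, a secreted protein made by precursors, was at 14.3, 44.9, 27.8 and 23.2 CPM. Of the 24 listed receptors and surface proteins, 17 were higher than in the other kept cells in every library, and 10 of the 12 listed astroglial genes were too.

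Genes specific to committed and myelinating stages were near the detection limit, but others on the same lists were not. Of 14 committed precursor genes, 6 were below 5 CPM in every library, and 3 were higher than in the other kept cells in every library. The list summed to 404, 727, 613 and 609 CPM in members and to 380, 396, 401 and 419 CPM in the other cells. Fyn, a Src family kinase gene, was at 98.0, 184, 155 and 151 CPM, and Sirt2, a deacetylase gene, at 95.6, 148, 158 and 153 CPM. Gpr17, a receptor of committed precursors, was at 0, 0, 0.816 and 2.82 CPM, and Neu4 had no UMI. Enpp6 was found only in En1/2 CKO replicate 2 (8.45 CPM). Of 17 myelin and mature oligodendrocyte genes, 11 were below 5 CPM in every library and 3 (Mog, Mobp and Ermn) had no UMI in any member. Mbp, encoding myelin basic protein, was at 0, 4.49, 3.27 and 7.04 CPM, below its 9.27 to 13.6 CPM in the other kept cells. Cnp, a myelin enzyme also present in precursors, was at 21.5, 94.2, 77.6 and 81.0 CPM, against 10.0 to 26.0 CPM in other cells. In each library a count of 0 allows up to 7.17, 13.5, 2.45 and 2.11 CPM (3 UMIs of the class total).

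The genes that led the class over all other kept cells included many that glial progenitors and astrocytes are known to make. By the mean log2 ratio over libraries, with 10 CPM added to each level, the leading genes were Olig2 (3.39), Spon1 (2.70), Bcan (2.55), Slc6a11 (2.49), Mfge8 (2.49), Grm5 (2.45), Egfr (2.34), Ramp1 (2.31), Sall3 (2.27), Fzd9 (2.26), Rgcc (2.20), Fbln2 (2.17), Sox8 (2.10) and Pla2g7 (2.08). Bcan encodes the matrix proteoglycan brevican, Slc6a11 a GABA transporter of astrocytes, Grm5 a metabotropic glutamate receptor and Mfge8 a secreted phagocytosis protein. The lowest of the 4 library ratios was at least 1.48 for each of these genes. The list describes the members and was not tested, because the rule used the same cells.

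Fabp7, the brain lipid-binding protein of radial glia, differed widely among the members of the libraries, at 3307, 16042, 9519 and 9804 CPM. Its level in other kept cells was 2083, 7852, 4570 and 4953 CPM, so both classes were lowest in control replicate 1 and highest in control replicate 2. The summed level of 12 pan-neuronal genes was 3084, 1279, 1753 and 1998 CPM in members and 5867, 3357, 4663 and 4880 CPM in other kept cells. Tubb3, a neuronal tubulin, was at 1564, 319, 736 and 952 CPM in members. Neuronal RNA was thus lower than in the other kept cells but not absent, and its part in the other levels was not tested.

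Glial genes were high in the members. The 11 radial glia genes summed to 9229, 20663, 16134 and 16398 CPM, and the 12 astroglial genes to 2852, 2598, 2655 and 3076 CPM, with 10 genes of each list higher than in the other kept cells in every library. The 8 choroid plexus genes summed to 31.1, 26.9, 19078 and 6606 CPM, so they were high in the En1/2 CKO libraries alone, as in the other kept cells (54.6, 31.7, 12469 and 3723 CPM).

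Markers of other cell types were low for some types but not for all. The 11 microglial genes summed to 9.56, 0, 23.7 and 6.34 CPM, with C1qa, C1qb and Csf1r at 0 by the rule and Mrc1 at 0 without it. Fibroblast genes summed to 13.5 to 62.9 CPM, where Pdgfra itself is 1 of the 10 genes and Col3a1, Lum and Aldh1a2 were at 0. The mural genes Rgs5, Kcnj8, Abcc9 and Acta2 had no UMI, but the 8 listed mural genes summed to 136, 44.9, 67.8 and 78.2 CPM. In the other kept cells that sum was 55.9, 41.1, 59.7 and 77.1 CPM. The Schwann and neural crest genes Foxd3 and Cdh19 had no UMI. Of the 12 genes on that list, which includes Fabp7, 4 were higher and 2 lower than in the other kept cells in every library. Gfap, the filament protein of mature astrocytes, had no UMI in any member. Haemoglobin and other erythroid genes summed to 2243, 58.3, 674 and 1383 CPM in members and to 5708, 57.7, 1908 and 1605 CPM in the other kept cells, so control replicate 2 was far lower in both.

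The members were also set beside the Aqp4 and Bcan astroglia, defined as cells with at least 2 UMIs of Aqp4 plus Bcan, none of the rule genes and the same exclusions (130, 17, 133 and 215 cells). Olig1-led cells were higher in Olig2 by a mean log2 ratio of 3.60, in Egfr by 2.51 and in Gadd45g by 2.45. The Notch ligand genes Dll1 (2.20) and Dll3 (2.06) were also higher. Dll3 was at 196, 71.8, 93.9 and 115.5 CPM in members and at 12.2 to 26.1 CPM in astroglia.

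Gas1, a co-receptor for Sonic hedgehog, was at 387, 251, 251 and 263 CPM in members, 95.7, 117, 69.5 and 48.6 CPM in astroglia and 47.2 to 71.99 CPM in other kept cells. Lower in members than in astroglia were Nkain4 (-1.97), Nppc (-1.97), Hs3st1 (-1.94), Spock3 (-1.89), Kit (-1.85) and Gabrb1 (-1.82). The glutamate transporter gene Slc1a3 was at 1423, 1176, 806 and 976 CPM in members and at 2097, 888, 1097 and 1580 CPM in astroglia, so control replicate 2 went the other way. These are descriptions of 2 classes cut by marker counts, and the 17 astroglia of control replicate 2 set a floor of 70.1 CPM there.

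The members with a Sox10 UMI were few, 5, 10, 9 and 18 cells, but their profile differed from that of the 1018 cells with Olig1 alone. Sox10-positive cells were deeper, with a median of 3839 UMIs against 1911. Mfge8, Aldoc and Slc6a11 were lower in them in every library, from few UMIs. Mfge8 was at 0, 47.2, 205 and 166 CPM in Sox10-positive cells and at 1635, 918, 1259 and 1416 CPM in cells with Olig1 alone. Aldoc, a glycolytic enzyme of astroglia, was at 0, 23.6, 114 and 60.5 CPM against 142, 456, 736 and 857 CPM. Slc6a11 was at 0, 0, 45.6 and 15.1 CPM against 331, 163, 145 and 186 CPM. In Sox10-positive cells Mfge8 had 0, 2, 9 and 11 UMIs, Aldoc 0, 1, 5 and 4, and Slc6a11 0, 0, 2 and 1. In control replicate 1, 3 UMIs of these cells make 310.5 CPM, so a count of 0 allows up to that level. The 0 of Aldoc there does not show a level below 142 CPM.

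Other genes ran the other way, among them precursor genes, which did not move as a group. C1ql1 was at 104, 165, 45.6 and 166 CPM in Sox10-positive cells and at 9.97, 16.9, 27.9 and 13.2 CPM in cells with Olig1 alone, from 1, 7, 2 and 11 UMIs. Matn4, a matrix protein gene, was at 310.5, 70.8, 45.6 and 60.5 CPM against 9.97, 5.63, 12.5 and 2.34 CPM, from 3, 3, 2 and 4 UMIs. Dll3 was at 207, 165, 456 and 439 CPM against 164, 33.8, 79.8 and 87.3 CPM. Sox8 was higher in Sox10-positive cells in 3 of 4 libraries, at 104, 401, 365 and 242 CPM against 119.6, 124, 88.4 and 121 CPM, and the exception, control replicate 1, had 1 UMI in 5 cells. Olig2 was also higher in Sox10-positive cells in every library, at 725, 661, 1322 and 817 CPM against 611, 602, 607 and 569.8 CPM. It rested on 7, 28, 58 and 54 UMIs of Sox10-positive cells, and the gap was small in both controls. The tdTomato transcript was at 1552, 755, 980.2 and 696 CPM in Sox10-positive cells, from 15, 32, 43 and 46 UMIs. It was at 376, 687, 481 and 518 CPM in cells with Olig1 alone, so it was not lower in Sox10-positive cells in any library. With cells thinned as for Olig2, TdTom was found in 35.3%, 64.5%, 43.5% and 53.3% of microglia. Among members the shares were 30.0%, 48.1%, 34.0% and 33.7%. Finding this RNA thus did not set members apart from microglia, and its source in either was not tested.

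Of the precursor receptors and surface proteins, Bcan, Ptprz1 and Serpine2 were lower in Sox10-positive cells in every library, like the astroglial genes. Ptprz1 was at 1035, 1274, 912 and 937 CPM against 2248, 1430, 1458 and 1360 CPM. Serpine2, a secreted protease inhibitor gene, was at 1138, 637, 980.2 and 1315 CPM against 3462, 974, 1775 and 1942 CPM. Cspg4 was higher in 2 libraries and lower in 2, from 4 UMIs in all. Egfr was at 0, 189, 114 and 136 CPM against 297, 141, 190.3 and 144 CPM. Fabp7 was lower in Sox10-positive cells in 3 libraries, and higher in control replicate 1 (7659 against 3235 CPM). The 21 cells with Pdgfra and Olig1 but no Sox10 had pooled levels of 586 CPM for Dll3, 338 CPM for Mfge8 and 529.6 CPM for Olig2. Only 11 cells carried both Pdgfra and Sox10. Cells were grouped by the UMIs measured in them, so a cell without a Sox10 UMI may still hold its RNA, and no test was made.

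**Figure D2:**
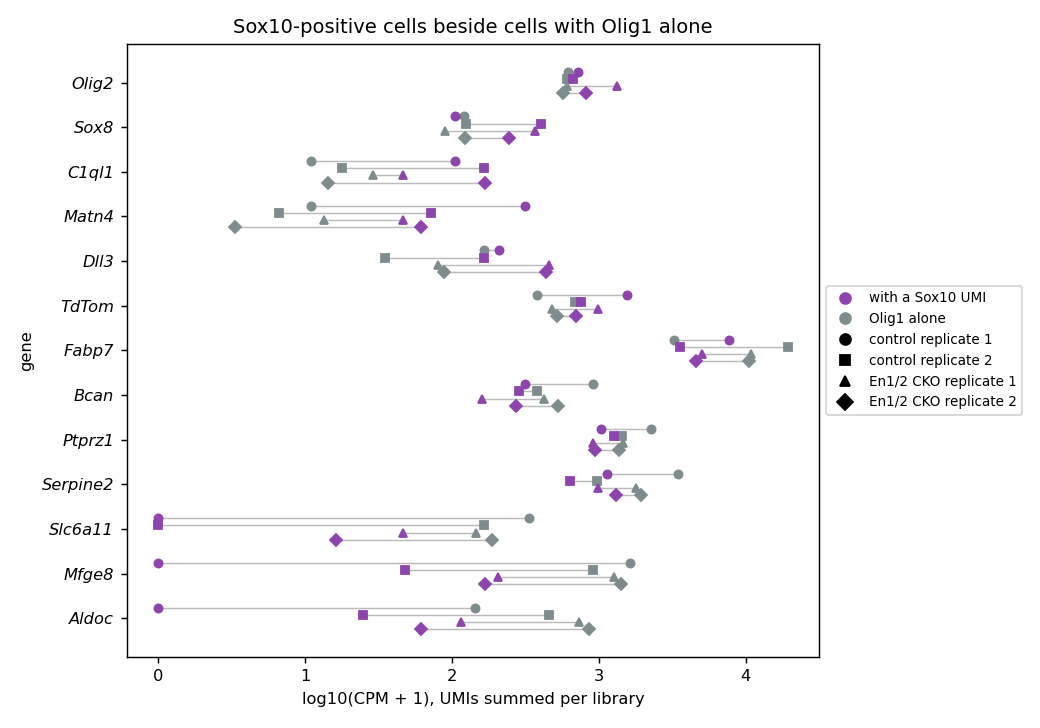
Level of 13 genes in Sox10-positive cells (purple; 5, 10, 9 and 18 cells) and in cells with Olig1 alone (grey), as log10(CPM + 1), with 1 symbol and joining line per library. Mfge8, Aldoc and Slc6a11 lie lower in the Sox10-positive cells of all 4 libraries, as do Bcan, Ptprz1 and Serpine2. Olig2, C1ql1, Matn4, Dll3 and TdTom lie higher in all 4. Many of the Sox10-positive values rest on few UMIs.

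Among the members 14 had no Olig1 UMI, of which 2 are among the Sox10-positive cells above, and all came from En1/2 CKO libraries (11 and 3 cells). Of these, 9 cells (7 and 2) carried all 6 choroid plexus genes examined, with 2387 to 5460 UMIs of Ttr per cell. Ttr encodes transthyretin, the carrier protein secreted by the choroid plexus. The 14 cells held 9.20% and 1.82% of the members' UMIs in the 2 En1/2 CKO libraries and 99.7% and 99.6% of the members' Ttr UMIs. Of the 14 cells, 12 entered the class with at least 2 Pdgfra UMIs. No control library had such a cell among its members. The share, the counts of calls, the named genes and the list medians below were therefore also computed without these cells, an alternative chosen after their values were seen.

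Near the limits of the rule, levels changed by steps. Cells just outside it with 1 rule UMI (532, 71, 278 and 760.0 cells) had 91.4 CPM of Olig2 when pooled, those with 2 rule UMIs had 279, those with 3 or 4 had 351 and those with 5 or more had 869. Sox8 went from 27.1 to 59.1, 73.7 and 169 CPM over the same steps. Bcan, at 224, 499, 567 and 438 CPM, did not follow that order. Another 38, 28, 74 and 145 barcodes met the rule but for more than 4 cell cycle UMIs, and their pooled Olig2 level was 536 CPM.

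As a share of kept cells, Olig1-led cells made up 2.28% (exact 95% interval 2.00% to 2.58%) and 6.88% (5.50% to 8.48%) in the controls. In the En1/2 CKO libraries they made up 5.73% (5.12% to 6.39%) and 5.91% (5.40% to 6.44%). The En1/2 CKO values lay between the control values. The means were 4.58% ± 3.26 (SD, n = 2) in controls and 5.82% ± 0.126 (SD, n = 2) in En1/2 CKO, a difference of 1.24 percentage points (two-sided exact permutation test, p = 1, where 2 against 2 libraries cannot go below 0.333). The difference was -1.06 points without control replicate 1 and 3.54 points without control replicate 2. Sorting sets which cells enter, so a share of sorted cells is not a number of cells in the cerebellum.

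**Figure D3:**
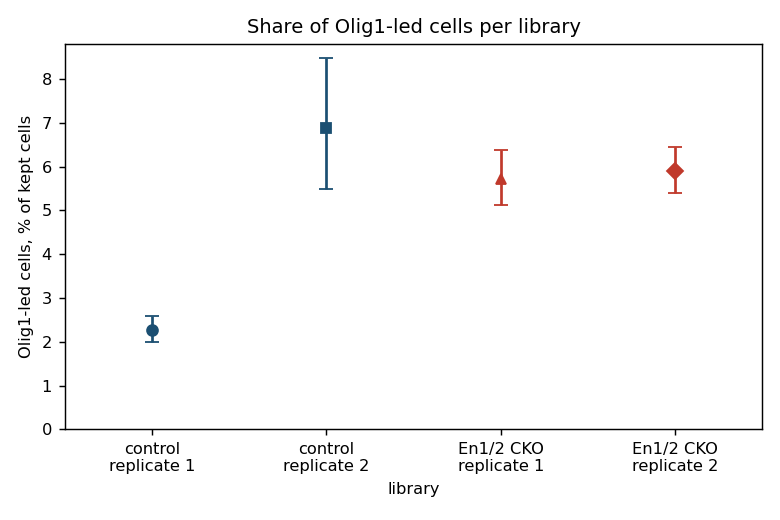
Olig1-led cells as a percentage of kept cells in each library, with exact 95% binomial intervals (counting error only). The 2 controls, at 2.28% and 6.88%, lie on either side of the 2 En1/2 CKO libraries, at 5.73% and 5.91%.

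For the genotype comparison within members, the targeted genes were examined first. En1 (chromosome 1, 120602418 to 120607992) stood at 62.2 and 31.4 CPM in the control members and at 22.0 and 12.7 CPM in the En1/2 CKO members. En2 (chromosome 5, 28165694 to 28172166) was at 71.7 and 8.97 CPM against 8.98 and 2.11 CPM, from 30, 2, 11 and 3 UMIs, and was too low to be tested. Both En1 values were lower in the mutants, but the log2 fold change of -1.61 (SE 0.46) had an adjusted p of 0.909 (edgeR quasi-likelihood test, Benjamini-Hochberg). Which exons the lox sites flank is not given in the sources used here, so 3′ UMIs may fall outside the deleted part and then do not check the deletion. TdTom was at 399, 718, 493 and 523 CPM in members, and at 456, 663, 493 and 605 CPM in the other kept cells. The labels state 2 replicate experiments but not which libraries belong to each. So p-values measure the spread between these pools.

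Among the members' 8987 testable genes, 0 passed the adjusted threshold of 0.05 between genotypes (0.0%) in either direction (edgeR). At an unadjusted p below 0.05 there were 209 higher and 249 lower genes, 5.1% of those tested. DESeq2 called 1 gene, Ttr (0.00608% of 16454). Groups did not overlap for 22.0% of genes in the higher direction and for 13.1% in the lower, with n = 2 against 2. In a simulation of this comparison over the same 8987 genes, 58% of 4-fold changes and 2% of 2-fold changes were recovered, with 9 false calls. The simulation gave all libraries the same spread for a gene. In the data the fitted biological coefficient of variation was 0.093 without a control library and 0.392 to 0.393 without a mutant library. Recovery in these data may differ for that reason. The 0 in this comparison therefore does not show that the genotypes were alike.

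Ttr came nearest, at 4.78, 4.49, 18774 and 6495 CPM (log2 fold change 11.29, SE 0.98, adjusted p = 0.0543, edgeR). Without the 14 Olig1-negative cells, its log2 fold change was 3.05 and its adjusted p was 0.903. In the other kept cells Ttr was at 13.0, 4.69, 12262 and 3639 CPM. The next genes by p were Fxyd1, an ion transport regulator, at 11.95, 8.97, 77.6 and 57.8 CPM, and Ecrg4, a secreted peptide precursor of the choroid plexus, at 2.39, 0, 93.9 and 46.5 CPM. Neither was abundant enough to be tested without the Olig1-negative cells. All 5 tested genes of the 8 listed for the choroid plexus were higher in En1/2 CKO with non-overlapping groups. Among all tested genes 22.0% were, and none of the 5 passed the adjusted threshold. Without the Olig1-negative cells only 2 genes of this list could be tested, of which 1 was higher and 1 lower.

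Btg2, an antiproliferative gene of newly committed neural cells, was at 71.7, 58.3, 215 and 229.6 CPM. Its log2 fold change was 1.68 (SE 0.31, adjusted p = 0.909), and 1.73 without the Olig1-negative cells. The groups lay far apart in the members, and other kept cells were at 94.7, 46.5, 177 and 177 CPM. The remaining named genes with higher values in the mutants were Xab2 (4.03), Syce2 (2.46), Gm10076 (2.41), Gm10260 (1.69), the actin-severing gelsolin gene Gsn (1.58) and B230118H07Rik (1.51), as log2 fold changes. Xab2 rested on 0 and 1 control UMIs and 36 and 41 in the mutants, so its fold change has no firm size: it was 2.57 without control replicate 1, 7.90 without control replicate 2 and 1.58 with no cap on cell cycle UMIs. Syce2 rested on 2 and 1 control UMIs against 33 and 40, and its value was 0.77 with no cap. Gm10076 and Gm10260 differed by as much in the other kept cells (2.45 and 1.62), and their names are those of predicted genes, whose reads may be shared with similar copies.

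Lower values in the mutants were led by Tmem14c, a mitochondrial haem transport gene, at 203, 162, 65.3 and 54.9 CPM (-1.68 log2 units, SE 0.29, adjusted p = 0.909). Tmem14c was also lower in the other kept cells (-1.54). Lhfpl3, a membrane protein gene of oligodendrocyte precursors, was at 26.3, 31.4, 5.71 and 4.23 CPM, from 11, 7, 7 and 6 UMIs. Its log2 fold change was -2.55 (SE 0.49) in members and -0.55 (SE 0.38) in other kept cells, a difference that was not tested. The effects of Lhfpl3 in members and astroglia differed by -0.23 (SE 2.43, interaction in edgeR, adjusted p = 0.999). Astroglia held 3, 0, 1 and 1 of its UMIs, too few to tell these 2 effects apart. Grm5, among the genes that led the class, was at 177, 238, 77.6 and 72.5 CPM (-1.52, SE 0.30, adjusted p = 0.909). Its value was -0.39 (SE 0.60) in other kept cells and -1.10 (SE 0.51) in astroglia, and the effects in members and astroglia differed by -0.32 (SE 0.50, interaction in edgeR, adjusted p = 0.985). The others were Pianp (-3.22), Sp5 (-2.10), Hk2 (-1.74), Gm21887 (-1.65), Pkd2 (-1.63), Gm44257 (-1.31) and the cyclin gene Ccnt2 (-1.24). In the other kept cells their values were -2.04, -0.69, -0.87, -1.19, -0.62, -0.26 and -0.86, in the same order. Pianp rested on 12, 4, 2 and 5 UMIs in members. Lhfpl3 (start 22746059) and Pkd2 (104459450) share chromosome 5 with En2 (28165694). Btg2 (134075170), Ecrg4 (43730602) and Ccnt2 (127774164) share chromosome 1 with En1 (120602418). Pkd2 and Ecrg4 lie farthest from the targeted genes, and Ecrg4 was too low to be tested without the Olig1-negative cells. For the 5 genes on these chromosomes the mutation and DNA carried along with the floxed alleles cannot be told apart.

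Of the lineage genes, Olig2 gave a log2 fold change between genotypes of -0.17 (SE 0.31, adjusted p = 0.968), from the 4 levels given above. Its groups did not overlap although the gap was small. Olig1 (-0.38, SE 0.37) and Sox8 (-0.50, SE 0.33) overlapped between genotypes. The value of Sox10 was -1.42 (SE 0.73), with the high value confined to control replicate 2, and that of Pdgfra was 1.21 (SE 0.60), where 12 of the Olig1-negative En1/2 CKO cells had at least 2 Pdgfra UMIs. Of 13 transcription factors tested, 5 had higher and 8 lower values in En1/2 CKO (median -0.17), and none passed. Over all 8987 genes 45.7% had higher values, with a median of -0.05.

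Of 18 receptors and surface proteins, 3 had higher and 15 lower values, with a median of -0.44. In 6 of them both mutant values lay below both controls and in 2 above, where 13.1% and 22.0% of all tested genes did. Gpr37l1, a receptor of glial cells, was at 26.3, 26.9, 8.98 and 10.6 CPM (-1.49), and Fgfr3, a fibroblast growth factor receptor, at 109.9, 94.2, 70.2 and 81.7 CPM (-0.51). Cholesterol synthesis genes, needed for membrane growth in glia, had 2 higher and 13 lower values of 15 (median -0.33), with Insig1 at 88.5, 94.2, 52.2 and 62.0 CPM. Extracellular matrix and proteoglycan genes had 2 higher and 9 lower values of 11 (median -0.54). All 11 tested G2 and M phase genes outside the rule had lower values (median -0.64), for example Tpx2, a spindle protein gene, at 45.4, 76.3, 14.7 and 28.2 CPM. The rule had already removed strongly cycling cells by related genes. Its cap counts raw UMIs, so it allows a smaller share of cell cycle RNA in deeper cells, and depth differed between libraries. The G2 and M phase list summed to 344, 354, 133 and 300 CPM in members. In the other kept cells it summed to 446, 1090, 895 and 1051 CPM. The part of the cap in the lower values was not tested.

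Progenitor genes had mixed values. Of 16 tested, 9 were higher and 7 lower (median 0.16), and 7 had both mutants above both controls, as did 22.0% of all tested genes. Sox2, a stem cell factor, was at 265, 390, 609 and 597 CPM, and Hes1, a Notch effector, at 71.7, 62.8, 139 and 132 CPM. Vim, an intermediate filament of radial glia, was at 1396, 893, 2465 and 2165 CPM. Id1, an inhibitor of basic helix-loop-helix factors, was at 16.7, 98.7, 199 and 171 CPM. In all 4 genes the other kept cells of En1/2 CKO were also above those of the controls, for instance Hes1 at 29.6, 35.0, 73.8 and 67.1 CPM. Within the Notch list of 12 tested genes, 3 were higher and 9 lower (median -0.18). Groups did not overlap for 3 genes above (Hes1, Hes5 and Nrarp) and 2 below (Dll1 and Dner), near the 22.0% and 13.1% of all tested genes, and the ligand genes Dll3 and Jag1 overlapped.

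The other lists gave no called gene either. Of 15 S phase genes, 11 were higher (median 0.24). Of 11 apoptosis and p53 genes, 10 were higher (median 0.43), with 3 not overlapping, near the 22.0% of all tested genes. All 6 tested Sonic hedgehog genes had lower values (median -0.39), with Ptch1, the pathway's receptor and target, at 141, 188, 124 and 116 CPM, and 1 of the 6 was higher without the Olig1-negative cells. Fgf and Sprouty genes were 4 higher and 6 lower of 10, BMP and Id genes 6 and 5 of 11, PDGF genes 3 and 1 of 4, committed precursor genes 3 and 4 of 7, and hindbrain position genes 7 and 5 of 12. Without the Olig1-negative cells the medians of the lineage and pathway lists kept their sign, except those of the committed precursor genes (-0.0094 to 0.011) and of the PDGF genes (0.13 to -0.02). The erythroid list and Malat1 differed more between the 2 controls than between genotypes.

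**Figure D4:**
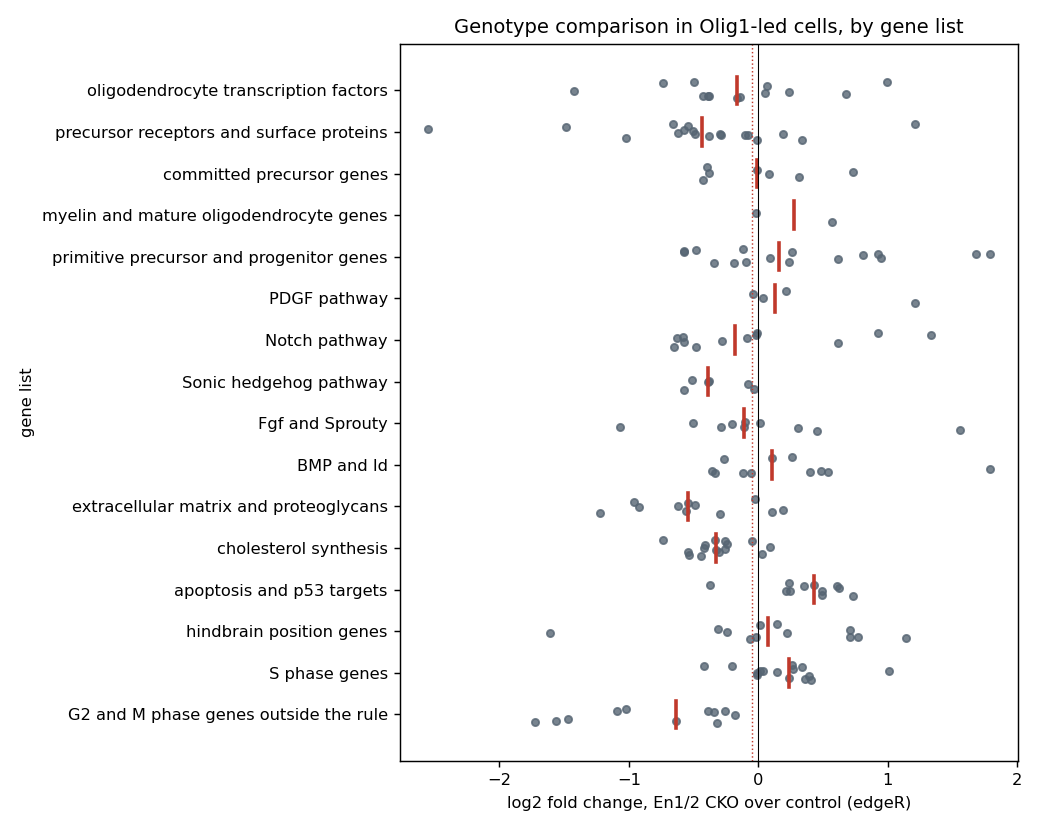
Log2 fold change, En1/2 CKO over control (edgeR, n = 2 against 2 libraries), of each tested gene in 16 gene lists, with 1 grey dot per gene, the list's median in red and the median over all 8987 genes as a dotted line. No dot passed the adjusted threshold. The medians range from -0.64 for G2 and M phase genes to 0.43 for apoptosis and p53 genes. Genes related to the G2 and M phase list were capped by the rule.

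The genotype effect was then compared with that in astroglia of the same libraries. Of 7964 genes, 6 differed in effect (0.0753%, interaction in edgeR, adjusted p below 0.05), with 423 at an unadjusted p below 0.05 (5.31%). The effects of 2 genes (0.0251%) were higher in Olig1-led cells: Sostdc1, a secreted BMP and Wnt antagonist, by 4.42 log2 units (SE 0.54, adjusted p = 2.36e-12), and Ttr by 6.55 (SE 0.92, adjusted p = 5.59e-09). Sostdc1 was at 19.1, 0, 228 and 68.3 CPM in members and at 169.7, 23.4, 109 and 22.3 CPM in astroglia. Without the Olig1-negative cells these 2 differences were 0.79 and -2.06, and neither passed.

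The effects of 4 genes (0.0502%) were lower in Olig1-led cells. The embryonic globin gene Hba-x differed by -1.67 (SE 0.31, adjusted p = 0.000147), at 1164, 0, 62.9 and 201 CPM in members and 292, 0, 89.1 and 115 CPM in astroglia. The neurexophilin gene Nxph4 differed by -2.59 (SE 0.51, adjusted p = 0.00074), at 215, 31.4, 58.8 and 53.5 CPM against 43.5, 0, 91.3 and 44.6 CPM. The noncoding RNA Snhg11 differed by -2.73 (SE 0.62) and the Wnt modulator gene Sfrp2 by -1.08 (SE 0.25), each with an adjusted p of 0.0153. Snhg11 was at 76.5, 17.9, 18.8 and 29.6 CPM in members and at 34.8, 0, 8.69 and 132 CPM in astroglia, where En1/2 CKO replicate 2 gave 65 UMIs. Its difference was -0.099 without that library (adjusted p = 1), and it did not pass without control replicate 1 (adjusted p = 0.549), with Scrublet doublets removed (0.464) or with astroglia of at least 3 UMIs (0.104). Sfrp2 was at 404, 98.7, 184 and 314 CPM in members and at 883, 210.3, 1260 and 974 CPM in astroglia. For all 4 genes the member level of control replicate 1 was the highest of the 4 libraries. Without that library none of the 4 genes passed (adjusted p of 0.422 to 1), and without En1/2 CKO replicate 1 Hba-x, Nxph4 and Sfrp2 did not (adjusted p = 1 for each). With the replicate number as a block no gene passed, and 3 (Nxph4, Hba-x and Snhg11) passed without the Olig1-negative cells. Within astroglia alone 0 of 6050 genes passed (0.0%, with 334 or 5.52% at an unadjusted p below 0.05). In all other kept cells 0 of 14895 passed (0.0%, with 666 or 4.47% unadjusted). DESeq2 was not run on these 2 classes.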

How the data were processed

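Raw UMI counts were deposited by the authors as 1 matrix per library (10x Genomics 3′ chemistry, per the labels' protocols), made with Cell Ranger 6.1.0 on mm10 per the submitters' processing notes and not normalised. The barcode and gene files they deposited are text. Intron counting is not given in the sources used here. Coordinates are GENCODE vM21 on GRCm38 (32158 of 32286 IDs matched). The members and all gene lists were chosen with earlier results of these data known. Total UMIs limit the precision.

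Member and astroglia UMIs were summed per library. Genotypes were compared with edgeR 4.0.16 (TMM, filterByExpr, quasi-likelihood F test, two-sided, Benjamini-Hochberg threshold 0.05), and their effects between classes as an interaction with library as block. SEs come from the F statistic. Shares used exact permutation and Clopper-Pearson intervals. Scripts were tested on simulated data. Named genes were the markers and targets, up to 10 genes per direction by p (at least 20 CPM in a group, groups not overlapping), the 15 leading genes (some genes are not reported here), and list members with the highest level or smallest p, other examples being chosen after their values were seen. In the interaction all 6 genes past the threshold were named. Alternatives were DESeq2 1.42.0, RLE factors, no filter, stricter cells or rules, no cap on cell cycle UMIs, Scrublet (in scanpy 1.11.5; where it marked under 0.5% of cells, as in control replicate 1 and both En1/2 CKO libraries, the top 0.8% per 1000 cells were taken), thinning, a replicate block, each library left out and, added after seeing the data, no Olig1-negative cells and a crossed block. Same-numbered libraries did not deviate together (r = -0.133 across 8987 genes, which are not independent).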

Additional observations from a re-analysis of the deposited data

Results flagged for a closer look

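The interaction test found 6 genes whose genotype effect differed between Olig1-led cells and astroglia (edgeR, adjusted p below 0.05), with effect differences on the log2 scale of 4.42 for Sostdc1, 6.55 for Ttr, -1.67 for Hba-x, -2.59 for Nxph4, -2.73 for Snhg11 and -1.08 for Sfrp2. In En1/2 CKO replicate 1, 11 Olig1-negative cells held 99.7% of the members' Ttr UMIs. For Hba-x, the erythroid list summed to 2243 CPM in control replicate 1 and 58.3 CPM in control replicate 2. In astroglia of control replicate 2, 17 cells gave 0 UMIs of Hba-x, Nxph4 and Snhg11. Without the Olig1-negative cells the differences of Sostdc1 and Ttr were 0.79 and -2.06, and neither passed. The part of the erythroid and astroglial values in the differences was not tested.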

How the results depend on the processing

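The share difference of 1.24 points ranged from -1.06 (without control replicate 1) to 3.54 (without control replicate 2), and kept its sign under the cell, rule, doublet, cycle, thinning and block alternatives. The genotype test in Olig1-led cells called 0 genes, and 1 with DESeq2, with stricter cells, with Scrublet doublets removed, with thinned sums and with the replicate block (Ttr in each), 40 without the low-count filter (30 higher, 10 lower) and 19 with the crossed block. Leaving out 1 library gave 0 to 1226 calls: 458 without control replicate 1, 1226 without control replicate 2, 0 without En1/2 CKO replicate 1 and 10 without En1/2 CKO replicate 2. The lone library is then assumed to vary like the other group, and the fitted biological coefficient of variation was 0.229 with all libraries, 0.093 without a control and 0.392 to 0.393 without a mutant.

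The interaction count of 6 became 0 with the replicate block and 3 without Olig1-negative cells, and 3 to 12 with a library left out (10 and 12 without control replicates 1 and 2, 3 and 6 without En1/2 CKO replicates 1 and 2). Signs reversed for Olig2 with stricter cells (0.028), for TdTom without control replicate 2 (0.32, range with a library left out -0.59 to 0.32), for Ttr against astroglia without Olig1-negative cells (-2.06) and without control replicate 1 (-1.07, range -1.07 to 8.71), and for Hba-x against astroglia without control replicate 1 (0.31, range -2.46 to 0.31). The causes were not tested. Of 419 values of 31 named genes under alternatives, 332 kept direction and side of the threshold, 61 passed it, 21 fell short of it and 5 reversed. With 81 cells in control replicate 2 and 237 shallow ones in control replicate 1, depth limits Sox10, Pdgfra, En2 and the 7 committed precursor genes that were too low to be tested.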

Other observations

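Genes of hindbrain position were present in the Olig1-led cells, but the list was not higher there. Of the 20 listed, 4 were higher and 6 lower than in the other kept cells in every library. They summed to 1097, 871, 981 and 1012 CPM in members and to 1182, 1016, 1189 and 1073 CPM in the other kept cells. Hoxa2, which patterns the hindbrain caudal to the cerebellum's origin, was at 21.5, 35.9, 20.4 and 26.8 CPM in members of control replicates 1 and 2 and En1/2 CKO replicates 1 and 2, and at 5.57 to 18.0 CPM in other kept cells. Meis2, a Hox cofactor, was at 279.8, 184, 187 and 208 CPM against 77.4 to 128 CPM. Levels of Irx1, at 88.5 to 104 CPM, were below those of the other kept cells (93.1 to 144 CPM) in every library.

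Ebf1, a factor of young Purkinje cells, was at 428, 305, 206 and 176 CPM in members and at 1361, 1312, 641 and 606 CPM in other kept cells. Its log2 fold change in members was -1.02 and the groups did not overlap, with no call by edgeR.

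Cells with Olig1 and at least 5 rule UMIs had 579 CPM of Tubb3 when pooled, against 1164 CPM in those with 2 rule UMIs and 2284 CPM in those just outside the rule with 1. The pools share libraries but differ in median depth, at 3314, 1392 and 1213 UMIs.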
